A study of Mus musculus with 24 samples.

Results

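The effect of losing apolipoprotein D (ApoD) was examined in the hippocampus of young mice, by setting the 3 arrays of young ApoD-KO hippocampus against the 3 arrays of young wild-type (WT) hippocampus. These 6 arrays were chosen by the region, genotype and age in their titles and belong to a series of 24 arrays, which also covers cortex and old mice. All animals were male C57BL/6J mice. The young KO and WT mice were 100 days old, and the old mice that are used below for comparison were 655 days old. The labels describe the mutant only as ApoD-KO, and the sources used here name neither the allele nor the cells that lack the gene. Each array carried RNA pooled from 2 to 3 mice. The p-values therefore measure the spread between pools, which is narrower than the spread between single mice.

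ApoD is a small secreted glycoprotein of the lipocalin family, whose members carry lipophilic molecules in a barrel-shaped pocket. It binds arachidonic acid and progesterone, among other ligands. In the brain it is made mainly by glial cells, and its transcript is known to increase with age, injury and oxidative stress. The hippocampus is a folded sheet of cortex needed for forming memories, with pyramidal neurons in the CA fields and granule neurons in the dentate gyrus.

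The deposited table identifies transcripts by Ensembl gene ID. The reference table at hand (assembly GRCm38.p6) lists 0 Ensembl IDs, so 0 of the 23879 IDs could be paired with a gene name. Results are therefore given by ID, and 0 of the 32 lists of pathway genes and cell type markers could be examined. For the same reason the dissection could not be checked against marker genes of hippocampal neurons, choroid plexus, meninges or blood, and the targeted gene could not be identified by name. Values are log2 signals, on which a difference of 1 is a doubling. The background level of the arrays is unknown, so the differences of dim IDs are uncertain. Of the 23879 IDs, the 14327 with a mean over the 24 arrays above 6.63 log2 were tested.

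The arrays did not vary equally around their group means. KO replicate 1 had a median signal of 7.31 log2 over all IDs, the lowest of the 24 arrays, where the other 5 young hippocampus arrays had medians between 7.36 and 7.42. Across the tested IDs, the SD of the difference between KO replicate 1 and any other array of the 6 was 0.202 to 0.243 log2. Between KO replicates 2 and 3 it was 0.161, and between pairs of WT arrays it was 0.123 to 0.131. Against the WT arrays it was 0.147 to 0.186 for KO replicate 2 and 0.126 to 0.159 for KO replicate 3. KO replicates 2 and 3 were thus no closer to each other than KO replicate 3 was to the WT arrays. The median SD of an ID was 0.109 log2 over the 3 KO arrays and 0.0604 over the 3 WT arrays. Over KO replicates 2 and 3 alone it was 0.0616, though an SD over 2 arrays is not like for like with one over 3. The labels give no date of hybridization or extraction, so no batch could be examined.

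One transcript fell in young KO hippocampus at a limma adjusted p under 0.05. ENSMUSG00000022548 had a level of 8.10, 7.88 and 8.07 log2 on the 3 KO arrays, against 11.87, 11.69 and 11.76 on the 3 WT arrays. KO replicate 1 lay with the other KO arrays here, and a gap of more than 3 log2 separated the genotypes. The difference of -3.76 log2 (SE 0.088, 95% interval -3.95 to -3.58, limma adjusted p = 1.2e-17) corresponds to a level 13.6-fold lower in KO. Without KO replicate 1 the difference was -3.81 log2 (limma adjusted p = 3.4e-16). The transcript retained a measured signal in KO mice, and whether 8.01 ± 0.12 log2 (SD, n = 3) is above background cannot be told from the deposited values. In the other 3 pairs of KO and WT groups the difference of this ID was -3.69 log2 in young cortex, -4.23 in old hippocampus and -4.13 in old cortex. It was the 1 ID with a limma adjusted p under 0.05 in each of these as well. Whether it is the targeted gene itself could not be checked by name, so it was not read as a downstream effect of losing ApoD.

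ENSMUSG00000022548 was the 1 ID of 14327 called at an adjusted p under 0.05, or 0.00698% of those tested. With KO replicate 1 left out it was again the 1 ID called. It was called under each of the 19 alternative settings tried, and a second ID passed under 2 of them. Most differences between KO and WT were small. From the 1st to the 99th percentile of the 14327 IDs they ran from -0.30 to 0.21 log2. The median SE was 0.0746 log2, and for 13876 IDs (96.9%) the 95% interval of the difference, unadjusted for the number of IDs, lay inside -0.5 to 0.5. For 9514 IDs (66.4%) it lay inside -0.25 to 0.25.

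Next after ENSMUSG00000022548 by unadjusted p came ENSMUSG00000038094. Its level was 8.73, 8.90 and 8.70 log2 on the KO arrays, against 8.34, 8.25 and 8.39 on the WT arrays. The groups did not overlap, and KO replicate 1 lay within the range of the others. The difference was 0.45 log2 (SE 0.088, 1.37-fold, unadjusted p = 4.9e-05) and did not pass the adjustment (limma adjusted p = 0.352). Without KO replicate 1 it was 0.47 log2 (limma adjusted p = 0.256). KO was also the higher group in young cortex, by 0.38 log2, in old hippocampus, by 0.26, and in old cortex, by 0.25. In that order the unadjusted limma p was 3.0e-04, 8.6e-03 and 0.011, and the limma adjusted p was 0.358, 0.999 and 0.772. These comparisons share no array with the one from which the ID was named. Whether the young cortex and young hippocampus pools came from the same mice was not tested. The difference in young hippocampus was not shown to be greater than that in young cortex (interaction 0.07 log2, unadjusted p = 0.597) or in old hippocampus (interaction 0.19 log2, unadjusted p = 0.137).

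A pair of other IDs was named by the same rule (smallest p in each direction without overlap of the arrays), so that their young hippocampus values were chosen for being far apart. ENSMUSG00000072731 had levels of 8.23, 8.34 and 8.50 log2 on the young KO hippocampus arrays, against 8.68, 8.82 and 8.84 on the WT arrays. The young WT hippocampus was the high group: old WT hippocampus averaged 8.28 ± 0.04 log2, young WT cortex 8.42 ± 0.18 and old WT cortex 8.23 ± 0.10 (SD, n = 3 each). KO minus WT was -0.43 log2 in young hippocampus (SE 0.088, limma adjusted p = 0.389), against 0.14 in young cortex, 0.10 in old hippocampus and 0.13 in old cortex. The young hippocampus difference was lower than that of young cortex by 0.57 log2 (unadjusted p = 1.7e-04) and lower than that of old hippocampus by 0.52 (unadjusted p = 3.9e-04). Both interactions reuse the young hippocampus values for which the ID was chosen, so their unadjusted p-values are biased downward. Neither interaction passed the adjustment, with limma adjusted p of 1.00 and 0.999.

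ENSMUSG00000044576 had levels of 7.60, 7.78 and 7.91 log2 on the young KO hippocampus arrays, against 7.48, 7.49 and 7.35 on the WT arrays. The groups did not overlap, and the lowest KO value was that of replicate 1. KO minus WT was 0.32 log2 (SE 0.075, limma adjusted p = 0.389). It was 0.41 log2 without KO replicate 1 (limma adjusted p = 0.135), and the ID passed the adjustment when arrays were weighted by their spread (0.42 log2, limma adjusted p = 0.031). In the other comparisons KO minus WT of this ID was 0.11 log2 in young cortex and -0.02 in both old hippocampus and old cortex. The interaction was 0.22 log2 with young cortex (limma adjusted p = 1.00) and 0.35 log2 with old hippocampus (limma adjusted p = 0.999), so a difference between the comparisons was not established.

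**Figure D1:**
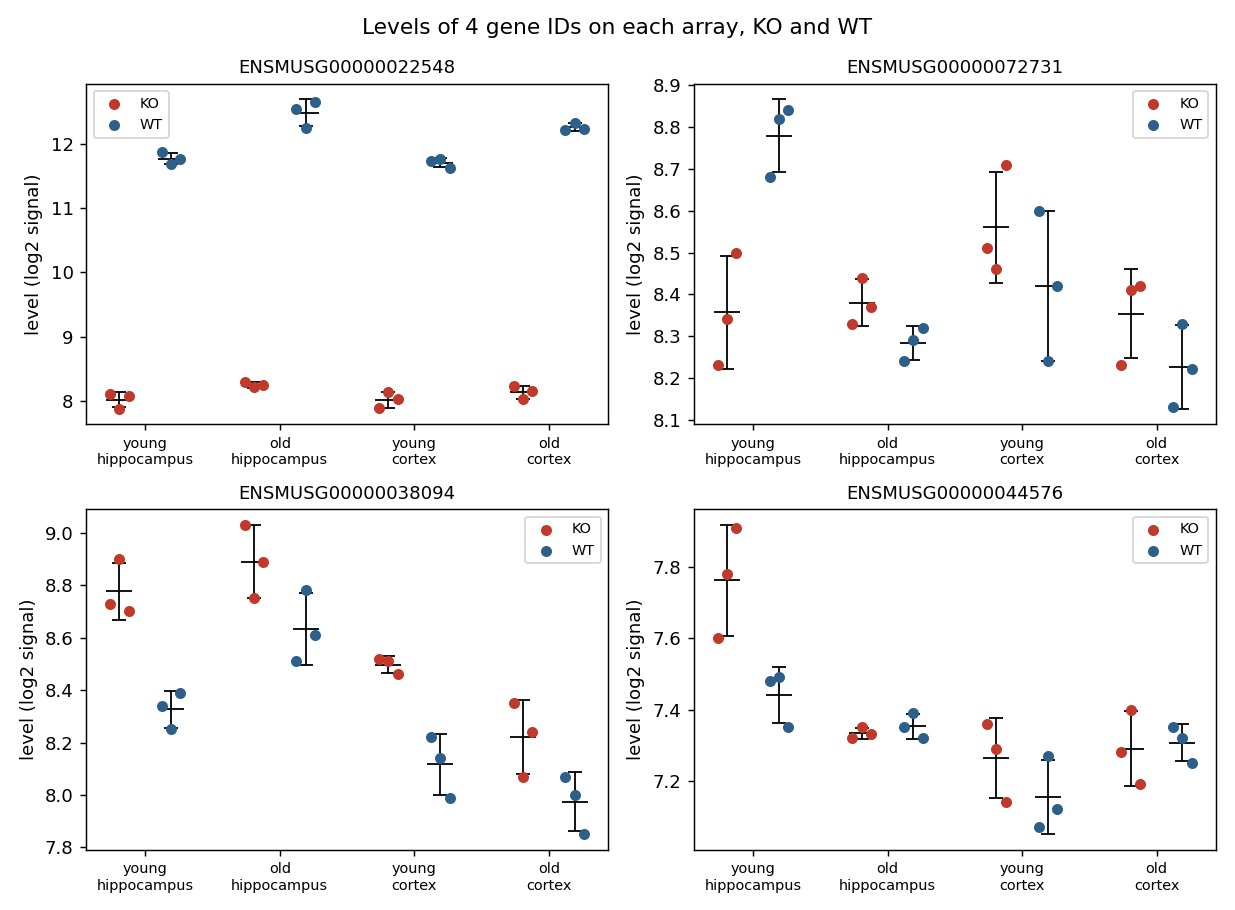
Level in log2 signal of 4 gene IDs on all 24 arrays, with KO (red) left of WT (blue) in each region and age. Each point is an array, and bars are the mean ± SD of 3 arrays. ENSMUSG00000022548 is low in each KO group, while ENSMUSG00000072731 (KO lower) and ENSMUSG00000044576 (KO higher) separate KO from WT without overlap in young hippocampus.

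The numerically greatest differences apart from ENSMUSG00000022548 came mostly from 1 array. A difference above 0.5 or below -0.5 log2 was found for 12 IDs, 6 higher and 6 lower in KO. In 11 of the 12, KO replicate 1 lay outside the range of the other 5 arrays, as it did for 59% of all tested IDs. The difference stayed beyond 0.5 log2 without that array in 2 of the 12, ENSMUSG00000022548 and ENSMUSG00000082663. KO and WT did not overlap in 3 of the 12. Over all tested IDs, KO lay wholly above WT for 3.8% and wholly below it for 5.56%. Without KO replicate 1, 24 of all tested IDs lay beyond 0.5 log2, 7 higher and 17 lower in KO. Of the 12, all 6 of the higher ones overlapped between the groups, and without KO replicate 1 their differences ran from -0.25 to 0.03 log2.

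The highest of these was ENSMUSG00000063442, with 10.44, 7.11 and 6.87 log2 on the KO arrays, against 6.84, 7.25 and 6.81 on the WT arrays. Its difference of 1.18 log2 (SE 0.55, limma adjusted p = 0.741) became 0.03 without KO replicate 1. ENSMUSG00000068324 was next, with 10.56, 7.74 and 7.62 log2 on the KO arrays, against 7.66, 7.53 and 7.81 on the WT arrays. Its difference of 0.97 log2 (limma adjusted p = 0.787) became 0.01. Both IDs were high on KO replicate 1 alone. These 2 IDs, the 2 described next and ENSMUSG00000073770 below were picked after their values were seen.

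The 2 IDs besides ENSMUSG00000022548 that lay beyond 0.5 log2 without overlap were both lower in KO. ENSMUSG00000079721 had 7.08, 7.72 and 7.95 log2 on the KO arrays, against 8.13, 8.33 and 8.27 on the WT arrays. Its difference was -0.66 log2 (SE 0.15, limma adjusted p = 0.389), and -0.41 without KO replicate 1, the lowest of the KO arrays. In the other 3 comparisons of KO with WT its difference lay between -0.08 and 0.01 log2. ENSMUSG00000082663, a dim ID, had 6.33, 6.56 and 6.50 log2 on the KO arrays, against 7.14, 7.08 and 6.99 on the WT arrays. Its difference was -0.61 log2 (SE 0.22, limma adjusted p = 0.540), and -0.54 without KO replicate 1. In old cortex its difference was -0.45 log2, and it was 0.22 in young cortex and 0.06 in old hippocampus.

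**Figure D2:**
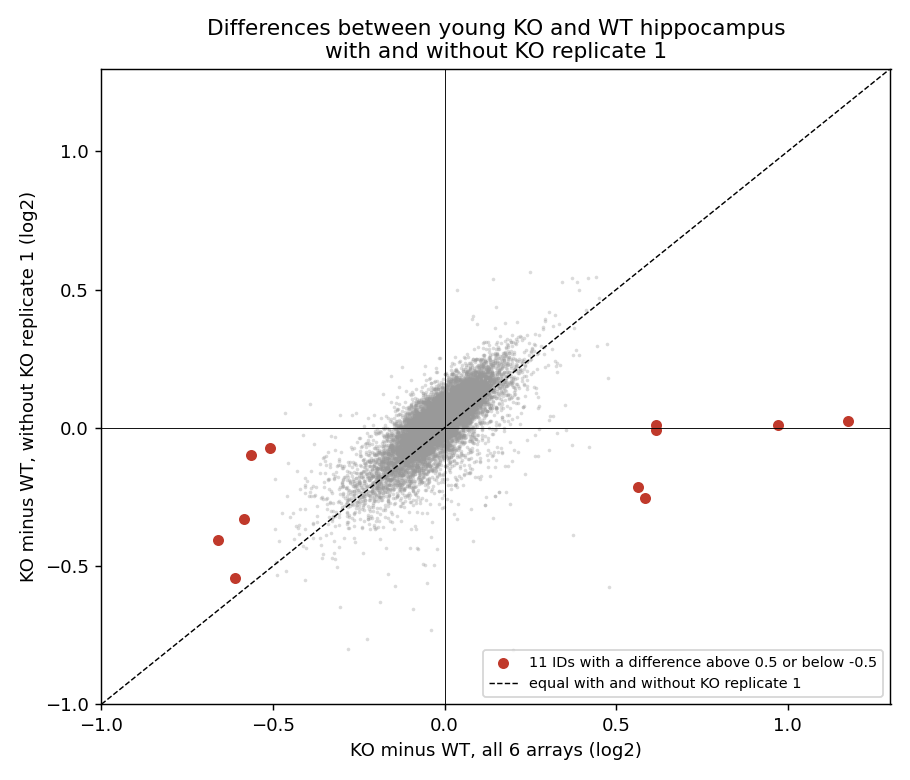
KO minus WT in log2 for each tested ID except ENSMUSG00000022548, from all 6 young hippocampus arrays (horizontal) and without KO replicate 1 (vertical). Red points are the 11 IDs with a difference above 0.5 or below -0.5 over all arrays, and the dashed line marks equal values. The 6 red points on the right drop to between -0.25 and 0.03 without that array.

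KO replicate 1 stood apart over much of the transcriptome. It was the lowest of the 6 arrays for 7042 of the 14327 IDs (49.2%) and the highest for 1407 (9.82%). No other array was the lowest in more than 12.3% of IDs. KO replicate 2 was the highest in 34.2% and KO replicate 3 in 21.2%, where the WT arrays were the highest in 9.04% to 13.9%. The share of IDs with KO replicate 1 lowest was 25.3% once each array was centred on its median, and 28.7% after quantile normalization, with 21.8% and 22.1% highest. Under both scalings it was the lowest of the 6 arrays more often than the highest.

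**Figure D3:**
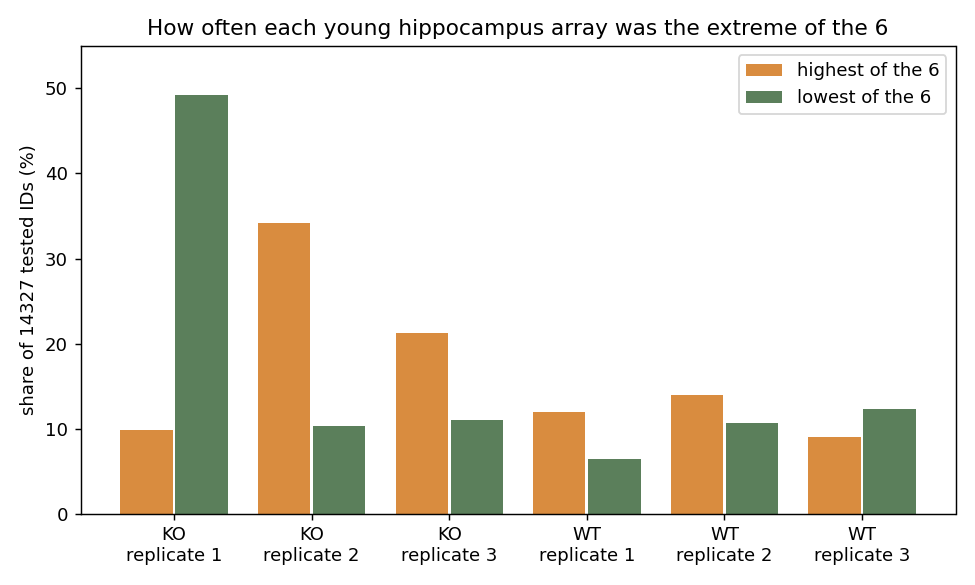
Share of the 14327 tested IDs, in percent, for which each young hippocampus array was the highest (orange) or the lowest (green) of the 6. KO replicate 1 is the lowest in 49.2% of IDs and KO replicate 2 the highest in 34.2%, while the WT arrays stay between 6.48% and 13.9%.

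The gap between KO replicate 1 and the mean of KO replicates 2 and 3 exceeded 1 log2 for 57 IDs, of which 47 were higher and 10 lower on replicate 1. For KO replicate 2 against the other KO arrays such gaps numbered 18, for KO replicate 3 8, and for the WT arrays 0 to 2. The 57 IDs had a median level of 8.20 log2 on the other 5 arrays, against 8.90 for all tested IDs. The ID with the greatest gap downward was ENSMUSG00000073770, with 6.24 log2 on KO replicate 1 and 7.94 and 7.65 on the other KO arrays, against 7.78, 7.73 and 7.72 on the WT arrays.

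The deviations of KO replicate 1 from its group mean were set against those of the 21 arrays of other groups, across the tested IDs. The highest Pearson correlation was 0.294, with replicate 1 of old KO hippocampus, and the lowest was -0.303, with replicate 3 of the same group. The next highest was 0.179. Deviations from a group mean cancel out over the arrays of the group, so correlations with arrays of the same group are not independent of one another. The gap of KO replicate 1 had r = -0.124 with the difference of old minus young in WT hippocampus and r = -0.018 with that of hippocampus minus cortex in old WT mice. These correlations are descriptions over 14327 IDs, which share arrays and processing and are not independent replicates. Which cells or conditions set this array apart was not tested, since no marker gene could be matched.

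At an unadjusted p under 0.05, 940 IDs (6.56%) differed between young KO and WT hippocampus, of which 224 (1.56%) were higher and 716 (5%) lower in KO. A share of 0.05 of the tested IDs is 716. The balance of directions depended on single arrays and on the scaling. Without KO replicate 1 the count was 1328 (9.27%), with 752 (5.25%) higher and 576 (4.02%) lower. Without WT replicate 2 it was 487, with 140 higher and 347 lower. The number of higher IDs was 342 without WT replicate 1 and 136 without WT replicate 3. After median centring 881 were higher and 354 lower, after quantile normalization 341 and 577, and with array weights, 974 and 741 of 1715. The centring used the median over all 23879 IDs, tested or not. It moved the median KO minus WT of the tested IDs from -0.0053 to 0.0423 log2, a shift common to all of them. Among the 9552 IDs above the 60th percentile of the mean level, 380 had such a p, of which 171 were higher and 209 lower. When only the 6 young hippocampus arrays were fitted, the count was 673, below 716, with 168 higher and 505 lower. Leaving KO replicate 1 out of that fit gave 1520, with 871 higher and 649 lower. When only the 12 hippocampus arrays were fitted, the count was 799, with 214 higher and 585 lower. Whether the count exceeded 716 thus depended on the arrays fitted. A general excess of lower or of higher transcripts in KO was therefore not established.

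**Figure D4:**
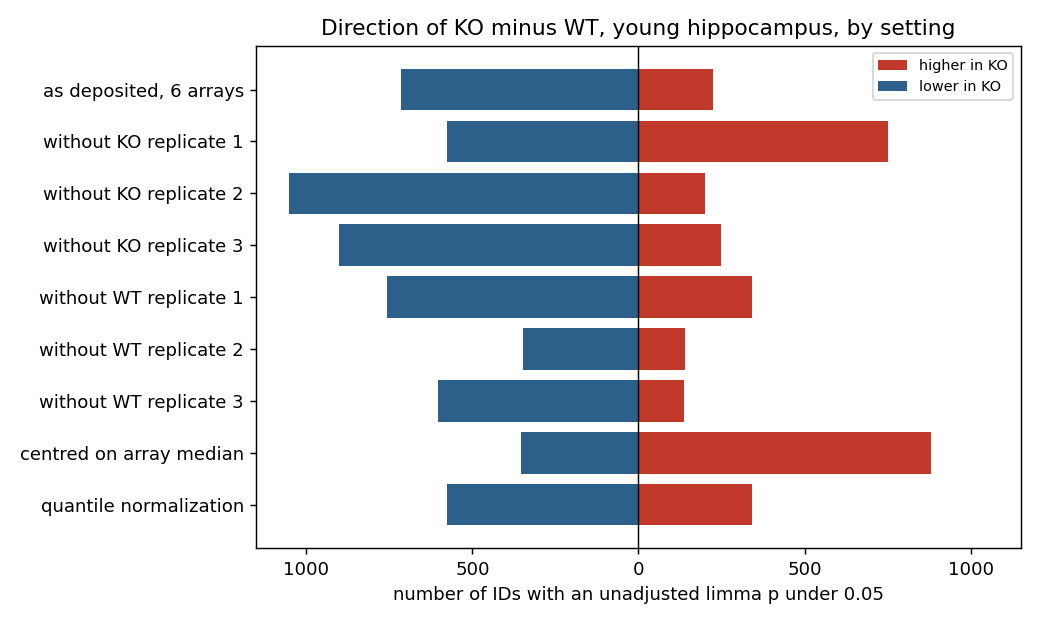
Number of IDs with an unadjusted limma p under 0.05 that were higher in KO (right, red) or lower in KO (left, blue) in young hippocampus, for the 6 arrays as deposited, without each array in turn, and under 2 other scalings. Higher IDs outnumber lower ones without KO replicate 1 (752 and 576) and after median centring (881 and 354), and are fewer in the other settings shown.

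The IDs found with and without KO replicate 1 were partly the same. Of the 940, 510 (54.3%) were also among the 1328, all 510 with the same sign, and these made up 38.4% of the 1328. Both fits use the same WT arrays and KO replicates 2 and 3, so the agreement of sign was largely built in. Most of the 940 were small differences. Leaving out ENSMUSG00000022548, the median size of the 939 was 0.20 log2 and 268 exceeded 0.25. KO lay wholly above WT for 544 IDs (3.8%) and wholly below it for 796 (5.56%), and 614 of these 1340 also had an unadjusted p under 0.05. With KO replicate 1 left out, the arrays that remained were wholly above WT for 3033 IDs (21.2%) and wholly below it for 1336 (9.33%). This condition is met more easily by 2 arrays than by 3, and the array left out was the lowest of the 6 for 49.2% of IDs. How much of either rise goes with the number of arrays was not tested.

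Low p-values were more frequent among dim IDs. With the tested IDs ranked by their mean level on the 5 arrays other than KO replicate 1, 393 of the 940 were among the 2866 dimmest, at 5.72 to 7.54 log2, and 46 were among the 2866 brightest, above 10.33 log2. The median of KO minus WT was -0.05 log2 in the dimmest IDs and 0.003 in the brightest. Without KO replicate 1, 435 of 1328 were among the dimmest and 74 among the brightest, and the median difference was -0.045 log2 in the dimmest and 0.024 in the brightest. The closeness of the dimmest IDs to background was not tested.

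Whether the effect of the knockout in young hippocampus differed from that in young cortex was tested as an interaction, with no array shared between the 2 comparisons. Whether the pools of the 2 regions came from the same mice was not tested, and the main fit paired no arrays. Deviations of same-numbered arrays of the 2 regions correlated at 0.049, 0.29 and 0.154 in young KO. In young WT they correlated at -0.025, -0.17 and -0.251. Limma called 0 IDs (0%), and 545 (3.8%) had an unadjusted p under 0.05, of which 179 (1.25%) had a higher and 366 (2.55%) a lower difference in hippocampus. That count was 839 without young KO hippocampus replicate 2, 857 without young WT cortex replicate 3 and 790, with 499 higher and 291 lower, without young KO hippocampus replicate 1. After median centring 504 were higher and 175 lower, after quantile normalization 253 and 344, and with array weights, 501 and 373 of 874. The centring moved the median interaction from -0.0081 to 0.0415 log2. When young KO cortex replicate 1 was left out, 4 IDs were called, namely ENSMUSG00000020178, ENSMUSG00000020599, ENSMUSG00000021478 and ENSMUSG00000032259. In young hippocampus, with all arrays, KO minus WT of these 4 lay between -0.11 and 0.02 log2, against 0.24 to 0.81 in young cortex. For each of the 4, the array left out was the lowest of the young KO cortex arrays. ENSMUSG00000032259 had 7.26, 8.51 and 8.20 log2 on these arrays, against 7.14, 7.25 and 7.15 in young WT cortex. ENSMUSG00000021478 had 8.47, 8.96 and 8.90 log2, against 8.52, 8.47 and 8.60. What set the KO cortex arrays apart from each other was not tested.

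Against old hippocampus the interaction again called 0 IDs with limma (0%), and 581 (4.06%) had an unadjusted p under 0.05, with 179 (1.25%) higher and 402 (2.81%) lower in young hippocampus. That count was 927, with 588 higher and 339 lower, without young KO hippocampus replicate 1, and 875 without old KO hippocampus replicate 3. After median centring 547 were higher and 185 lower, after quantile normalization 295 and 338, and with array weights, 664 and 565 of 1229. The centring moved the median interaction from -0.0113 to 0.038 log2. KO minus WT of ENSMUSG00000022548 was -3.76 log2 in young and -4.23 log2 in old hippocampus. The interaction of 0.47 log2 had an unadjusted p of 1.1e-03 and a limma adjusted p of 0.999. Its level in young hippocampus was 8.01 ± 0.12 log2 in KO and 11.78 ± 0.09 in WT, against 8.25 ± 0.04 in KO and 12.49 ± 0.21 in WT in old hippocampus (SD, n = 3 each).

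Across the 14326 tested IDs other than ENSMUSG00000022548, KO minus WT in young hippocampus had a Pearson correlation of 0.094 with KO minus WT in young cortex, 0.075 with that in old hippocampus and 0.237 with that in old cortex. Without KO replicate 1 these values were 0.128, 0.057 and 0.271. The comparisons share no array, but they share the array design and the processing, and the IDs are not independent. Pools of young cortex and young hippocampus may also share mice, which was not tested. Of the 939 IDs with an unadjusted p under 0.05 in young hippocampus, 59.4% had the same sign in young cortex, 57.2% in old hippocampus and 74.2% in old cortex, where all IDs had the same sign in 52.8%, 51.9% and 58.1%. In old cortex 64 of the 939 had an unadjusted p under 0.05 with the same sign and 4 with the opposite sign, against a background of 5.91% of tested IDs at that p there. In young cortex the numbers were 26 and 9, against a background of 2.87%, and in old hippocampus 16 and 16, against 3.03%. Whether the likeness to old cortex exceeded that to the other comparisons was not tested.

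**Figure D5:**
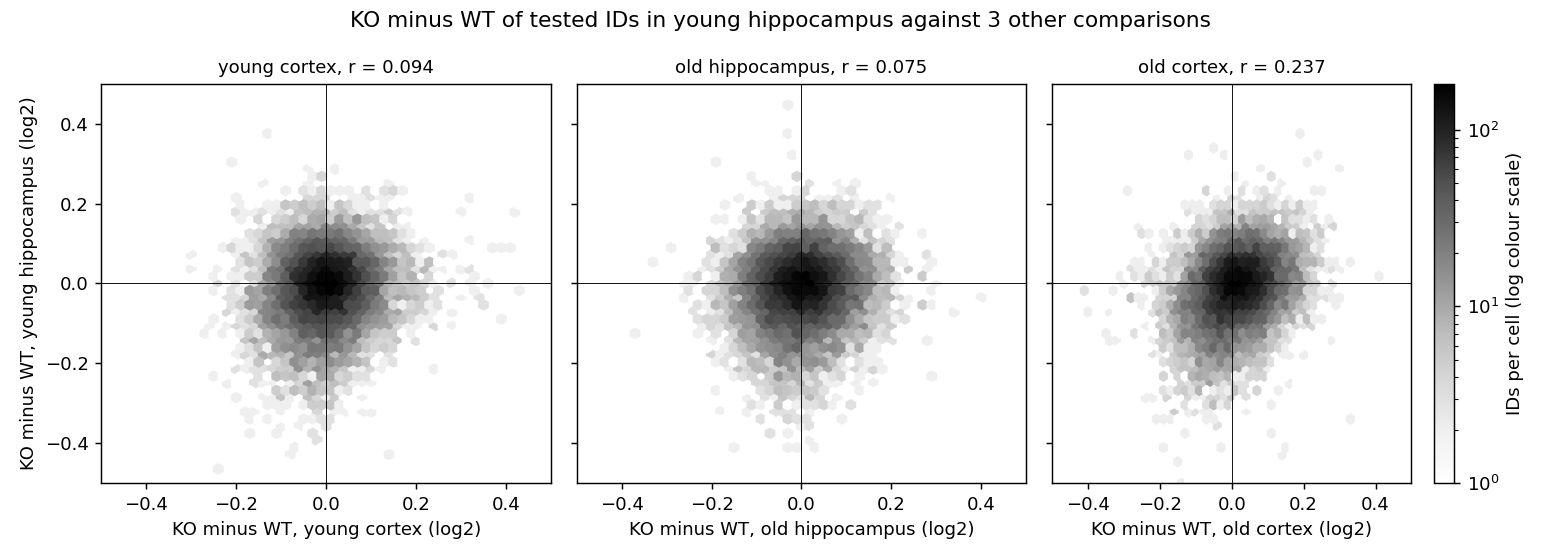
KO minus WT in log2 for the tested IDs in young hippocampus (vertical) against young cortex, old hippocampus and old cortex (horizontal), with darker cells holding more IDs on a log colour scale and ENSMUSG00000022548 left out. The axes stop at -0.5 and 0.5, so 20, 21 and 23 IDs in the 3 panels lie outside. The cloud is close to round for the first and second panel (r = 0.094 and 0.075) and tilts upward in the third (r = 0.237).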

How the data were processed

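The deposited table holds log2 signals of 23879 Ensembl gene IDs on 24 Affymetrix arrays, from 3.99 to 14.4, with 0 missing values. The log2 unit was inferred from this range. MAS5 and RMA are named in the submitters' processing notes, with no role or version. The sources used here give no array model, annotation build or rule for joining probes into IDs. The number of arrays limits the precision.

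Of the 23879 IDs, the 14327 whose mean exceeded 6.63 log2, the 40th percentile, entered the tests. The 24 arrays were fitted together as 8 group means by lmFit and eBayes (R 4.3.3, limma 3.58.1), with 16 residual degrees of freedom. Contrasts were KO minus WT in young hippocampus and its differences from young cortex and old hippocampus. Tests were two-sided, with Benjamini-Hochberg adjustment over all tested IDs, and an ID was called under 0.05. The fit was tested on simulated data. IDs were named as the called ID and the 2 with the smallest p in each direction among those without overlap of KO and WT. The parts of the naming rule that need a gene symbol were not used. The comparison, lists and rules were chosen with earlier results of these data known. Other filters, scalings, moderation, array weights, subsets of arrays, a replicate block and leaving out each array were tried.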

Additional observations from a re-analysis of the deposited data

How the results depend on the processing

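In KO minus WT of young hippocampus the number of called IDs was 1 in 17 of 19 alternative settings, and leaving out each of the 6 arrays in turn gave 1 to 1. It was 2 with array weights, which added ENSMUSG00000044576, and 2 with the replicate block, which added ENSMUSG00000041930 (7.29, 7.41 and 7.49 log2 in KO, against 7.65, 7.75 and 7.77 in WT). Same-numbered KO and WT arrays of young hippocampus had deviations that correlated at -0.214, -0.225 and -0.221, so the numbers were not taken to pair the arrays, and the replicate block changed no call of the interactions, with 0 in each. The interaction with young cortex gave 0 to 4 calls when arrays were left out in turn, and that with old hippocampus 0 to 0. The difference of ENSMUSG00000022548 stayed between -3.83 and -3.69 log2, that of ENSMUSG00000038094 between 0.39 and 0.50 (limma adjusted p 0.088 to 1), that of ENSMUSG00000044576 between 0.25 and 0.42 (0.031 to 1) and that of ENSMUSG00000072731 between -0.50 and -0.36 (0.10 to 1). The settings for the scaling of KO replicate 1 were chosen after seeing the data. Each array is a pool of 2 to 3 mice, signal over background is unknown, and without KO replicate 1 the KO spread rests on 2 arrays and on the spread shared with the other groups.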
